A study of Homo sapiens with 9 samples.

Results

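The genes described here encode a set of proteins that carry an interferon signal: the interferon regulatory factors IRF1, IRF2, IRF3, IRF7 and IRF9, the signal transducer STAT2, the type I interferon receptor chains IFNAR1 and IFNAR2, and interferon-β itself, IFNB1. They were found by gene symbol, which gave 9 of the 19389 genes in the expression table. The RNA was from SW1353, an established line grown from a human chondrosarcoma and widely used to model cartilage cells. There were 3 libraries each of untreated cells, of cells given interleukin-1β (IL-1β), a cytokine that drives joint inflammation, for 20 h at 20 ng/mL, and of cells given PBSL 2 h ahead of that IL-1β treatment. PBSL comes from larvae of Protaetia brevitarsis seulensis, a beetle; its concentration in the sequenced libraries is not stated, and no library had PBSL alone. All libraries are of 1 cell line, and no label says whether the libraries of a group came from separate cultures, so p-values reflect only how far these libraries scatter, which may be technical. In bulk RNA, fewer cells of a type and less RNA per cell cannot be told apart.

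Type I interferons bind a receptor made of IFNAR1 and IFNAR2, whose attached kinases JAK1 and TYK2 phosphorylate STAT2 and other STAT proteins. STAT2 and IRF9 are subunits of ISGF3, a complex that binds the interferon-stimulated response element of antiviral genes. IRF3 and IRF7 act earlier, since they are switched on by sensors of viral nucleic acid and drive the interferon genes, while IRF1 is itself an inducible activator and IRF2 can compete with it for the same DNA. Several of these genes, among them IRF7, IRF9 and STAT2, are known targets of ISGF3 in many cell types. IRF1 is a known target of NF-κB, which IL-1β activates, and of STAT dimers.

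The deposited values were normalized by the authors, and they behaved as if scaled for transcript length. Among genes above 0 in a single library, the median value was 0.122 for the 124 genes with less than 1000 bases of annotated exon and 0.018 for the 178 with 3000 or more. The value of a single read fragment in a library, judged from the lowest step of values, was 0.876 to 1.09 times that in untreated 1. That step was sought in the same window of value times exon length in every library, which holds the ratio near 1. It cannot show whether the libraries were of like depth, and their read counts are not known. Fragment numbers given below rest on this step and are rough. On the second principal component PBSL 1 lay at 0.578, between the IL-1β libraries (-12.4 to -11.5) and PBSL 2 and PBSL 3 (18.2 and 16.8), and the set's results on PBSL are therefore given with and without it. As PBSL 1 lay nearest the IL-1β libraries, leaving it out tends to widen the PBSL difference and is no check on it. Of 10 cartilage markers 4 passed the filter used below, and their list summed to 18.7 to 21.0 in untreated, 14.2 to 15.7 in IL-1β and 12.8 to 14.5 in PBSL libraries. SOX9 was at 12.0 ± 0.68, 8.80 ± 0.371 and 8.92 ± 0.816 in these groups. ACAN, the aggrecan gene, went the other way, at 0.501 ± 0.0503, 1.43 ± 0.201 and 1.80 ± 0.354, while COL2A1 reached at most 0.027 and COL9A1 stayed below 0.1. Of 8 leukocyte markers 3 passed, and the list summed to 73.5 to 80.8 in untreated, 99.4 to 103 in IL-1β and 84.4 to 90.6 in PBSL libraries. CD68, which many cell types express, made up 68.0 to 97.0 of that sum, and PTPRC reached at most 0.393. The 5 epithelial markers, 3 of them tested, summed to 138 to 148 in untreated, 76.6 to 78.2 in IL-1β and 57.6 to 77.0 in PBSL libraries, nearly all of it from the keratins KRT18 (100.2 ± 3.16, 54.9 ± 0.767 and 47.9 ± 7.8) and KRT8 (39.5 ± 1.89, 18.03 ± 0.542 and 15.0 ± 2.18). CLDN4, also tested, went the other way, at 1.67 ± 0.486, 4.39 ± 0.293 and 4.04 ± 0.571. EPCAM and CDH1 reached at most 0.489 and 0.341. The 4 plasmacytoid dendritic cell markers summed to 10.7 to 12.1, 7.26 to 8.77 and 7.47 to 8.34, mostly from TCF4, and none of the 4 endothelial markers passed the filter. The part of these marker changes in the results below was not tested.

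Genes were tested where 3 or more libraries reached a value of 1. This held for 7 of the 9 genes, and these 7 were above 8 in every library, so the filter did not select them for a change. IRF7 and IFNB1 did not pass. In the plot of values by library, IRF9, STAT2 and IRF1 stand well above their untreated level after IL-1β, and IRF9 and STAT2 come down with PBSL while IRF1 does not.

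**Figure D1:**
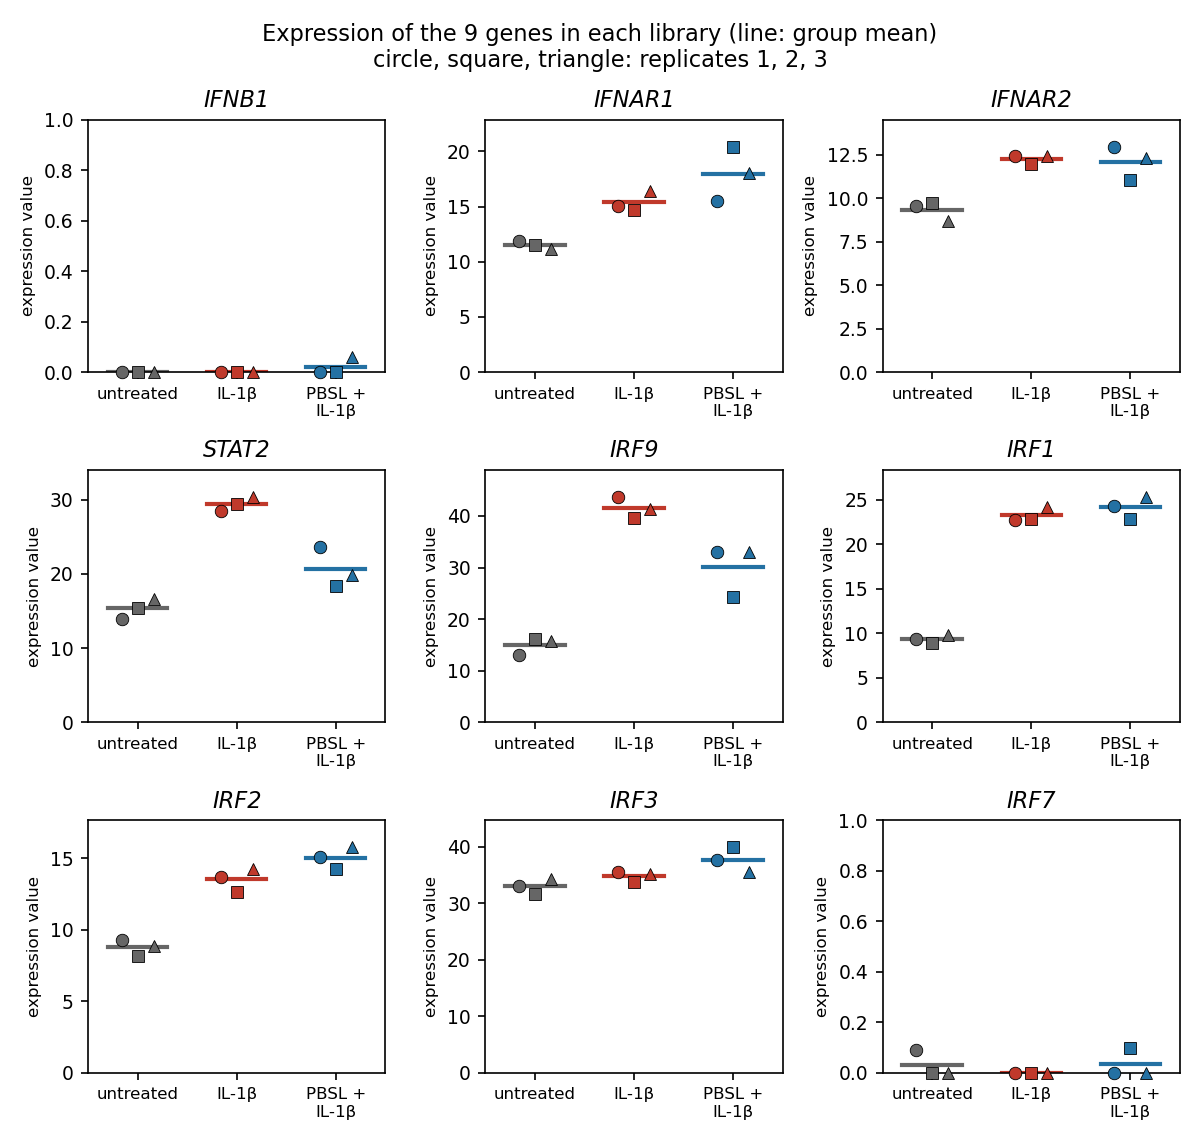
Expression value (vertical axis, linear, from 0) of each of the 9 genes in the untreated, IL-1β and PBSL + IL-1β libraries; points are libraries and lines are group means of 3. The IL-1β libraries of STAT2 lie between 28.5 and 30.4, above every untreated and every PBSL library, whereas IRF7 and IFNB1 do not exceed 0.1 in any library.

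The promoter sequences of IRF1, IRF9 and IFNB1 are shown because they hold matches to motifs that IRF, STAT or NF-κB proteins are known to bind. Sequences from RefSeq (GRCh38.p14), from 250 bases before to 50 after a gene's start, were matched for 5 of the 9 genes, IRF1, IRF9, STAT2, IFNB1 and IFNAR1, the last with a pair of starts. They were searched on both strands for the IRF core (AANNGAAA), the ISRE (GAAA, any 2 bases, GAAA, which contains an IRF core), the GAS element bound by STAT dimers (TTCNNNGAA) and the κB consensus of NF-κB. In the lines below each stretch is written 5′ to 3′ on the gene's own strand, in lower case with the matches in capitals.
IRF1, chr5:132490799-132490923, minus strand: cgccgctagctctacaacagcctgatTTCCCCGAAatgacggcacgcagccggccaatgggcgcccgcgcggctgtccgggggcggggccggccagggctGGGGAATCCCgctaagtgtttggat
IRF9, chr14:24161219-24161248, plus strand: ccctggaggagAACTGAAActtagggtggg
IFNB1, chr9:21077964-21078057, minus strand: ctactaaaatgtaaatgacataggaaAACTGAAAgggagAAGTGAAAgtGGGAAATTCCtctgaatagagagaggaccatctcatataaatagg

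The IRF1 window held a GAS match starting 124 bases before the RefSeq start (132490773) and a κB match starting 50 bases before it. This start lies inside the annotated span of IRF1 given below. In the IRF9 window an IRF core began 35 bases before the RefSeq start (24161265) and a GAS match 63 bases before it. That start lies inside the annotated span of IRF9 given below, 24161053 to 24166565, and so do both matches. The IFNB1 window had a pair of IRF cores, beginning 89 and 76 bases before the RefSeq start (21077942), beside a κB match at 66, and farther out a GAS match at 218. This start too lies inside the annotated span of its gene. No match to any of the 4 motifs lay in the STAT2 window or in either IFNAR1 window, and none of the 5 genes had the full ISRE letters. Over all 35116 RefSeq windows of this length, 22.8% held an IRF core, 3.57% an ISRE, 7.66% a GAS match and 5.91% a κB match. These matches describe letters and not binding.

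Interferon-β RNA was all but absent, although stimulated cells were sampled only after 20 h of IL-1β, so an earlier rise could not be seen. IFNB1, on chromosome 9 (21077105 to 21077963, hg38, minus strand), was listed at 0 in 8 libraries and at 0.062 in PBSL 3, which at its annotated exon length is about 1.1 read fragments. Of 21 interferon genes in the table (the IFNA family, IFNB1, IFNE, IFNK, IFNW1, IFNG and 3 IFNL genes), 17 were listed at 0 in every library and 3 were above 0 in 1 library each. The remaining gene, IFNE, encodes interferon-ε, an interferon known from the female reproductive tract. It was the only ligand tested, with 1.03 ± 0.217 (SD, n = 3) untreated, 1.89 ± 0.264 with IL-1β and 1.46 ± 0.0366 with PBSL. IFNE rose with IL-1β (log2 fold change 0.51, SE 0.098, adjusted p = 0.00175, limma), while PBSL against IL-1β gave -0.23 (adjusted p = 0.111). Without PBSL 1 that value was -0.24. IFNE reached 1 in only 1 untreated library (1.265) and so passed the filter mainly through the other groups, which bears on its IL-1β call.

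Both receptor chains were expressed and rose modestly with IL-1β. They lie near each other on chromosome 21, IFNAR1 at 33324477 to 33359862 and IFNAR2 at 33229901 to 33265675, both on the plus strand. IFNAR1 had 11.9, 11.5 and 11.2 in untreated 1, 2 and 3, 15.0, 14.7 and 16.4 with IL-1β, and 15.5, 20.4 and 18.03 with PBSL. Every IL-1β library lay above every untreated one, and PBSL 2 and PBSL 3 lay above all IL-1β libraries, while PBSL 1 fell among them. The log2 fold change with IL-1β was 0.38 (SE 0.0866, adjusted p = 0.00494). With PBSL it was a further 0.21 that did not pass the test (95% interval 0.017 to 0.40, adjusted p = 0.107), and single libraries moved it: it was 0.30 and passed without PBSL 1 (adjusted p = 0.00876), and 0.115 without PBSL 2 (adjusted p = 0.335). Against untreated cells it was 0.59 (adjusted p = 0.000229), and 0.69 without PBSL 1.

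IFNAR2, the chain that docks STAT2, had 9.57, 9.73 and 8.69 in the untreated libraries, 12.4, 11.9 and 12.4 with IL-1β, and 13.0, 11.01 and 12.3 with PBSL. The IL-1β libraries lay above the untreated ones, and the PBSL libraries spanned them. IFNAR2 rose by 0.36 on the log2 scale (SE 0.0697, adjusted p = 0.00187), and the PBSL difference of -0.02 had a 95% interval of -0.17 to 0.13 (adjusted p = 0.869), and was -0.067 without PBSL 1 (adjusted p = 0.506). A read-through gene on the same strand, AP000295.1, spans all of IFNAR2, and it had a value above 0 only in PBSL 3 (0.177).

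The ISGF3 genes showed the clearest pattern: they rose with IL-1β and were lower with PBSL, though still above untreated cells. STAT2, which brings the transactivation domain to ISGF3, is on chromosome 12 (56341597 to 56360155, minus strand). Its values were 14.0, 15.5 and 16.6 untreated, 28.5, 29.4 and 30.4 with IL-1β, and 23.7, 18.4 and 19.9 with PBSL. The 3 groups did not overlap. STAT2 rose with IL-1β by 0.90 (SE 0.0878, adjusted p = 1.01e-05), a 1.86-fold change of value + 1. With PBSL it was lower by 0.50 than with IL-1β (log2 fold change -0.50, SE 0.0878, adjusted p = 0.00419), or 0.707-fold in value + 1. It remained 0.40 above untreated (adjusted p = 0.00356). Without PBSL 1 the change against IL-1β was -0.60 (adjusted p = 0.000212) and that against untreated 0.30 (adjusted p = 0.00673). Without PBSL 2, the lowest PBSL library, the change against IL-1β shrank to -0.42 and was still called.

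IRF9, the DNA-binding subunit of ISGF3, lies on chromosome 14 (24161053 to 24166565, plus strand). It was at 13.0, 16.1 and 15.8 in untreated libraries, 43.7, 39.6 and 41.4 with IL-1β, and 33.0, 24.3 and 33.1 with PBSL. Again no library of a group reached into another group, and PBSL 2 was the lowest of its group, as it was for STAT2. IRF9 had the largest IL-1β change of the 7 genes, 1.42 on the log2 scale (SE 0.112, adjusted p = 1.62e-06) or 2.67-fold in value + 1. Against IL-1β alone PBSL gave -0.46 (SE 0.112, adjusted p = 0.0141), and against untreated cells 0.96 (adjusted p = 4.03e-05). Leaving out IL-1β 1 ended the PBSL call (-0.43, adjusted p = 0.0544, in a range of 0.00587 to 0.0544), and without PBSL 1 the change was -0.53 (adjusted p = 0.00587), and 0.885 against untreated. Without PBSL 2 the change against IL-1β shrank to -0.32 and was still called. All 5513 bases of IRF9 also lie inside AL136295.5, a protein-coding gene of the same strand, and how reads shared by the pair were counted is not stated.

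**Figure D2:**
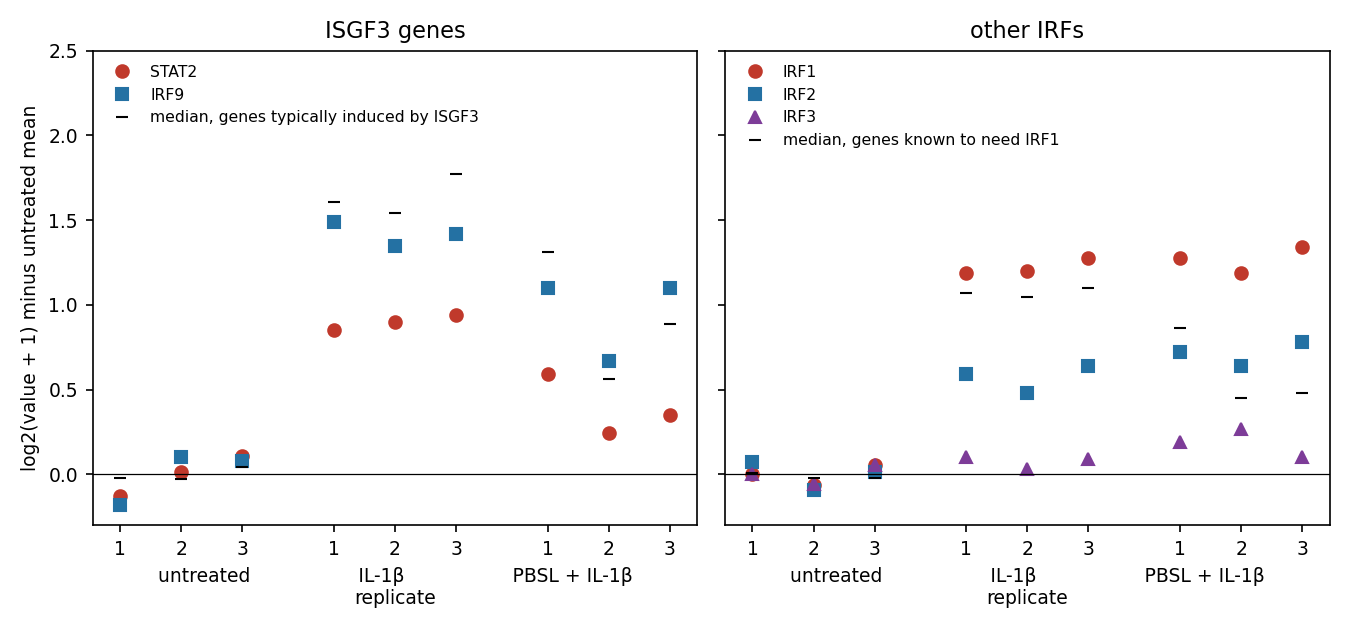
Difference of log2(value + 1) from the untreated mean (vertical axis) in each library, by group and replicate; the left panel shows STAT2, IRF9 and the median of the tested genes typically induced by ISGF3, and the right panel IRF1, IRF2, IRF3 and the median of the tested genes known to need IRF1. STAT2 goes from 0.855 to 0.942 in the IL-1β libraries to 0.246 to 0.595 in the PBSL libraries, while IRF1 is between 1.19 and 1.34 in both.

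IRF1 rose as clearly as the ISGF3 genes but was not measurably lower with PBSL. This activator of antiviral and antigen-presentation genes is on chromosome 5 (132481609 to 132490798, minus strand). Its untreated values were 9.43, 8.98 and 9.83, its IL-1β values 22.7, 22.9 and 24.2, and its PBSL values 24.3, 22.8 and 25.3. Both stimulated groups lay far above untreated cells and overlapped each other. The log2 change with IL-1β was 1.22 (SE 0.06, adjusted p = 3.04e-08), and PBSL against IL-1β gave 0.052 with a 95% interval of -0.080 to 0.18 (adjusted p = 0.569), or 0.046 without PBSL 1. All 9190 bases of IRF1 lie inside AC116366.3, a protein-coding gene of the opposite strand, and 7094 of them inside C5orf56, also opposite. AC116366.3 was at 0.365 to 1.33 in untreated, 0.827 to 0.932 in IL-1β and 1.00 to 1.23 in PBSL libraries.

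IRF2, the related factor that can repress IRF1 targets, rose by less. On chromosome 4 (184387713 to 184474580, minus strand), it had 9.29, 8.18 and 8.87 in untreated libraries, 13.7, 12.7 and 14.3 with IL-1β, and 15.1, 14.2 and 15.8 with PBSL. The PBSL range began just under the highest IL-1β library. Its log2 fold change with IL-1β was 0.57 (SE 0.0685, adjusted p = 5.46e-05), and PBSL against IL-1β gave 0.14 with a 95% interval of -0.0087 to 0.29 (adjusted p = 0.159), or 0.138 without PBSL 1. IRF1 and IRF2 stood close together untreated, at 9.42 ± 0.428 and 8.78 ± 0.561, and apart with IL-1β, at 23.3 ± 0.833 and 13.6 ± 0.818.

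IRF3, the latent factor that viral sensing activates by phosphorylation, was the most abundant of the set in untreated cells and moved least with IL-1β. Its values on chromosome 19 (49659569 to 49665875, minus strand) were 33.0, 31.7 and 34.4 untreated, 35.6, 33.8 and 35.3 with IL-1β, and 37.8, 40.0 and 35.5 with PBSL. The IL-1β libraries overlapped both other groups. Neither IL-1β (log2 fold change 0.077, 95% interval -0.048 to 0.20, adjusted p = 0.336) nor PBSL against IL-1β (0.11, interval -0.016 to 0.23, adjusted p = 0.19, and 0.108 without PBSL 1) passed the test. PBSL against untreated did at 0.19 (adjusted p = 0.0215, in a range of 0.00823 to 0.116, and 0.0326 without PBSL 1). This last call was lost without untreated 1 (adjusted p = 0.0535), without untreated 2 (0.0817), without PBSL 2 (0.0672), with only the 2 groups in the fit (0.06) and with quantile normalization (0.116). IRF3 overlaps BCL2L12 on the opposite strand by 734 bases. BCL2L12 was at 38.8 to 39.5 with IL-1β and 46.3 to 50.5 with PBSL (log2 fold change 0.29, adjusted p = 0.00415), and its part in the IRF3 values was not tested.

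IRF7, which amplifies interferon production and is itself usually interferon-inducible, was at or near 0 in every library. The gene, on chromosome 11 (612553 to 615999, minus strand), was listed at 0.089 in untreated 1, at 0.1 in PBSL 2 and at 0 in the other 7 libraries, all 3 IL-1β libraries included. At its annotated exon length of 2140 bases these values stand for about 3.5 and 3.8 read fragments. With no filter on low values IRF7 gave adjusted p = 0.578 for IL-1β and 0.579 for PBSL against IL-1β, and IFNB1 gave 1 and 0.527.

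Counted over the set, 6 of the 7 tested genes were higher with IL-1β and none lower, where 16.2% of all 11924 tested genes were called higher. IRF3 was the exception. The median log2 fold change was 0.57, against -0.0049 for all tested genes. For those 6 genes every IL-1β library lay outside the untreated range, as was so for 52.8% of all tested genes. With PBSL against IL-1β, 2 of the 7, STAT2 and IRF9, were called, both lower, where 22.5% of all tested genes were called, 11% lower and 11.5% higher. The median was 0.052 against 0.0079. Those 2 genes were also the only ones without overlap, which held for 41.8% of all tested genes. Against untreated cells all 7 were higher with PBSL, where 22.3% of all tested genes were, with a median of 0.59 against 0.031 and no overlap for any, a state shared by 48.2% of all tested genes. The comparisons share libraries: the IL-1β libraries enter the first and second, so a chance high value there would raise one change and lower the other.

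**Figure D3:**
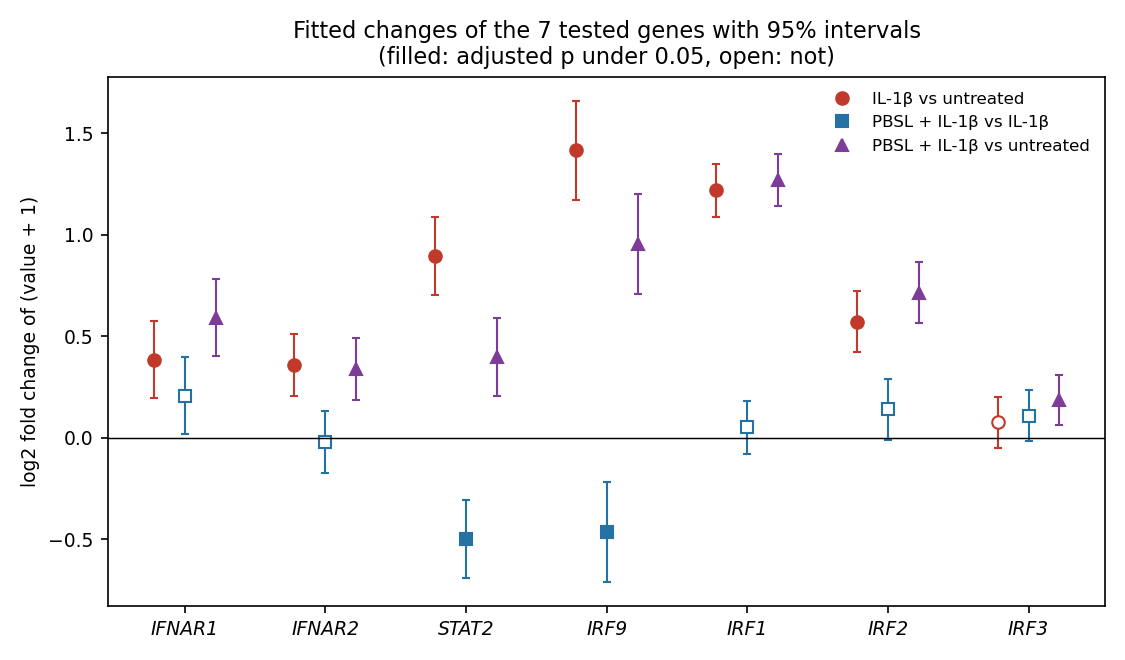
Log2 fold change of value + 1 (vertical axis) of the 7 tested genes in the 3 comparisons, with 95% intervals from limma; filled symbols had an adjusted p under 0.05. For PBSL against IL-1β only STAT2 (-0.50) and IRF9 (-0.46) are filled and below 0.

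Whether PBSL acted differently on the ISGF3 genes and on IRF1 was examined through ratios within each library, which no rescaling of a library can alter. These 4 ratios were chosen after the values were seen. The log2 ratio of STAT2 to IRF1 was 0.34 ± 0.0209 (SD, n = 3) with IL-1β and -0.24 ± 0.169 with PBSL, a difference of -0.57. For IRF9 to IRF1 it went from 0.84 ± 0.0927 to 0.30 ± 0.188, a difference of -0.53. Without PBSL 1 these differences were -0.67 and -0.60. In both ratios every PBSL library lay below every IL-1β library (exact permutation p = 0.1 for each, 2-sided, 0.133 adjusted over the 4 ratios), and 0.1 is the smallest p that 3 against 3 libraries allow. STAT2 to IRF9 differed by -0.043 (exact permutation p = 0.7), and IRF2 to IRF1 by 0.097 (exact permutation p = 0.1), with PBSL libraries at -0.689, -0.681 and -0.683.

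The order of the genes by level changed between groups, taking the values as comparable between genes. Untreated cells had IRF3 first, then STAT2 and IRF9, whose ranges overlapped, then IFNAR1, and then IRF1, IFNAR2 and IRF2, each overlapping the next. With IL-1β the order was IRF9, IRF3, STAT2, IRF1, IFNAR1, IRF2 and IFNAR2, and no neighbours overlapped. IRF9 thus went from 15.0 ± 1.68, well under IRF3, to 41.6 ± 2.02, above the 34.9 ± 0.925 of IRF3. With PBSL IRF3 was again first at 37.8 ± 2.21, and IRF9, IRF1, STAT2, IFNAR1 and IRF2 followed with ranges that each overlapped the next.

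Genes whose library profile most resembled these were sought among all tested genes, for the 3 members that spanned at least 1 on the log2 scale, by the root mean square difference of centred log2 values over the 9 libraries. For STAT2 they were PARP12 (0.0555), SCG5 (0.0568) and COL5A3 (0.0656). PARP12, itself an interferon-inducible gene, went from 5.91 ± 0.432 to 12.5 ± 0.864 and was at 8.81 ± 1.34 with PBSL. SCG5, almost as close, had 36.2 ± 1.93 untreated, 67.5 ± 2.17 with IL-1β and 49.2 ± 4.83 with PBSL. IRF9 was closest to GBP5 (0.0819), SAMHD1 (0.117) and CHI3L1 (0.12). SAMHD1, a nucleotide hydrolase that restricts viruses, had 7.38 ± 0.136, 22.8 ± 1.3 and 15.6 ± 4.18 in the same order, and CHI3L1 had 41.2 ± 5.74, 117.5 ± 6.72 and 80.7 ± 15.9. For IRF1 they were LPXN (0.0606), TNFAIP8 (0.0655) and SERPINB8 (0.0779). LPXN went from 3.60 ± 0.12 to 10.2 ± 0.369 and 10.4 ± 0.423. TNFAIP8, a TNF-inducible gene, went from 10.2 ± 1.07 to 25.9 ± 0.724 and 27.1 ± 0.83.

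The rest of the pathway was read from 10 gene lists, which include the set. For comparison with the counts below, 16.2% of all tested genes were called higher and 16% lower with IL-1β. With PBSL against IL-1β these shares were 11.5% and 11%. Of the 82 tested list genes outside the set, none lost a call for PBSL against IL-1β without PBSL 1 and 10 gained one. Over all tested genes the count rose from 2684 to 3910 in that setting, so it is no check on these calls. With the set included, 39 list genes were called for PBSL against IL-1β, and 28 without PBSL 2. Of the 6 receptor chains 5 were tested and 4 rose with IL-1β, the interferon-γ receptor chains IFNGR1 (16.2 ± 1.1 to 24.8 ± 1.62) and IFNGR2 (18.7 ± 1.05 to 24.8 ± 0.39) among them. IL10RB, shared with interferon-λ and IL-10 receptors, went from 25.6 ± 1.1 to 28.8 ± 0.709 without passing the test (adjusted p = 0.0915). None of the 5 was called with PBSL against IL-1β, although without PBSL 1 IFNAR1 was higher and IL10RB lower (adjusted p = 0.00338). Of the 3 Janus kinases JAK1 rose with IL-1β from 46.6 ± 1.39 to 55.9 ± 0.949, and TYK2 (35.6 ± 1.24 and 38.8 ± 3.04) and JAK2 (3.81 ± 0.194 and 3.61 ± 0.165) did not pass. JAK1 was at 50.1 ± 2.37 with PBSL, a difference with adjusted p = 0.0485 that was lost in 11 of the 19 alternatives and ranged up to 0.146.

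Of 7 STAT genes 6 were tested; 5 rose with IL-1β and none fell. STAT3, which carries IL-6 family signals, went from 52.1 ± 0.503 to 61.7 ± 0.376, and STAT6, of the IL-4 pathway, from 25.4 ± 1.11 to 37.1 ± 1.24. STAT5B did not pass (10.3 ± 0.442 and 9.26 ± 0.455). With PBSL against IL-1β STAT3 was lower, as STAT2 was. The STAT3 difference, to 54.5 ± 3.11, was lost in 7 alternatives, among them without any single IL-1β library, without PBSL 2 and without PBSL 3 (adjusted p = 0.0287, and up to 0.0969). Of the other IRF genes below the filter, IRF4 and IRF8 reached at most 0.029 and 0.27, and IRF5 at most 1.36.

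Upstream of IRF3 and IRF7, all 14 listed kinases and adaptors were tested, and 7 rose and 1 fell with IL-1β. The named genes of this list were IRAK1 (79.1 ± 3.14 and 71.6 ± 1.91, not called), TANK (21.2 ± 1.07 and 26.6 ± 1.86, higher), AZI2 (20.6 ± 0.516 and 23.7 ± 1.21, higher) and TMEM173, or STING (21.9 ± 1.98 and 23.1 ± 0.914, not called). The AZI2 call was lost in 8 of 19 alternatives (adjusted p = 0.034, up to 0.149 without IL-1β 1). Named after their values were seen, IKBKE, a kinase of IRF3 that NF-κB induces, had a log2 fold change of 1.46 (adjusted p = 3.32e-08) and TRAF3 0.725. TBKBP1 fell, a call lost in 9 alternatives (up to adjusted p = 0.158 without untreated 3 or without IL-1β 2). With PBSL against IL-1β 12 of the 14 were not called, IKBKE included (-0.11, adjusted p = 0.307), and MYD88 and TBKBP1 were lower. The median log2 fold change of the 14 was -0.00985, against 0.00794 for all tested genes. The MYD88 call was lost in 6 alternatives (up to adjusted p = 0.112, without IL-1β 1) and that of TBKBP1 in 4 (up to 0.102, without IL-1β 3).

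Of 12 negative regulators of interferon receptor signalling 11 were tested, and 5 rose and 1 fell with IL-1β. SOCS3, which blocks gp130 cytokine receptors, went from 25.0 ± 0.662 to 41.5 ± 2.0, and PTPN1, a JAK phosphatase, from 20.9 ± 0.596 to 23.6 ± 1.07, a call lost in 9 alternatives (up to adjusted p = 0.171 without IL-1β 3). PTPN11 (39.4 ± 1.56 and 36.6 ± 0.658) and PIAS3 (30.7 ± 0.846 and 29.2 ± 1.38) did not pass. With PBSL against IL-1β USP18, an ISGF3 target that shields IFNAR2 and was named after its values were seen, was lower (log2 fold change -0.67, adjusted p = 0.00775, and -0.87 without PBSL 1). PTPN11 was higher at 43.2 ± 4.03, a call lost in 7 alternatives, up to adjusted p = 0.101 without IL-1β 2. Of 5 IRF cofactors and corepressors only IRF2BP2 was called with IL-1β (24.0 ± 0.503 to 30.1 ± 1.28), and none was called with PBSL against IL-1β.

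**Figure D4:**
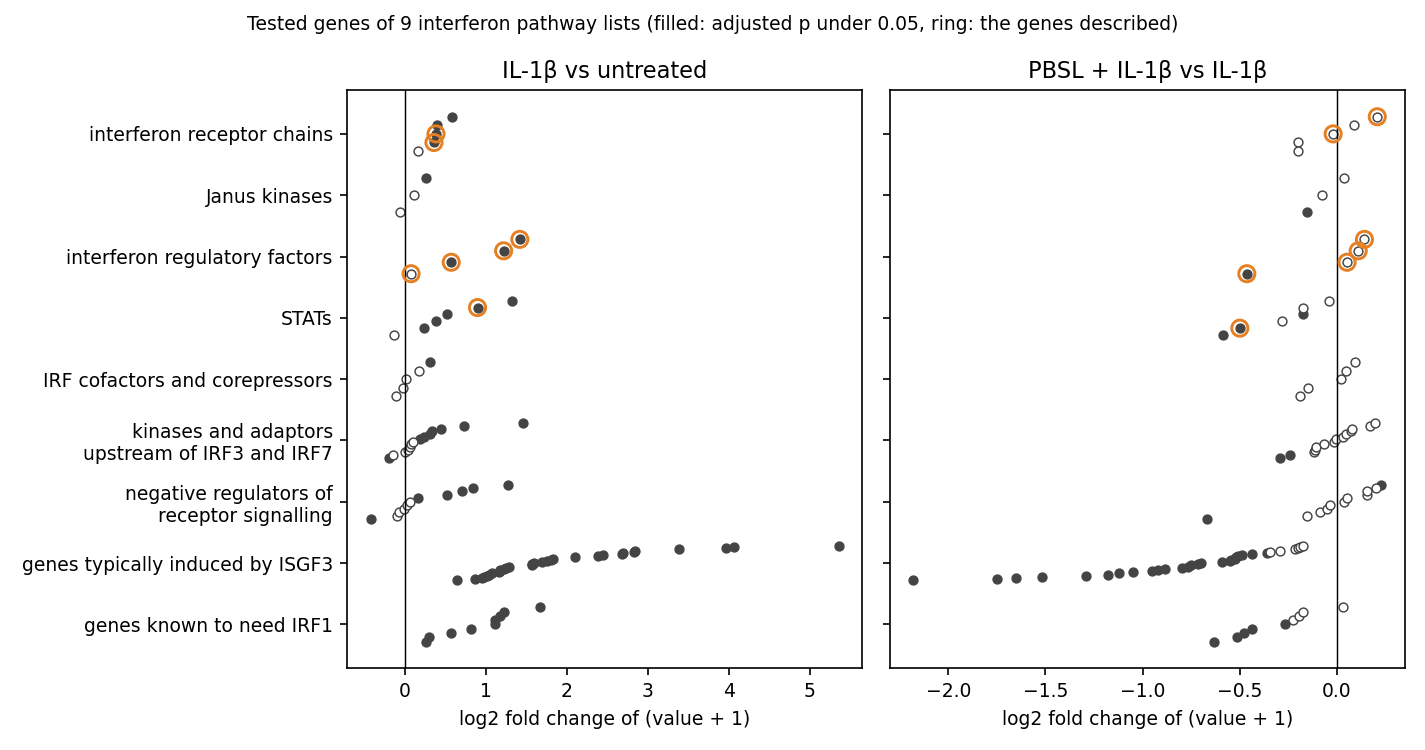
Log2 fold change of value + 1 (horizontal axis) of each tested gene in 9 interferon pathway lists, the ligands left out (vertical axis), for IL-1β against untreated cells and for PBSL + IL-1β against IL-1β; filled points had an adjusted p under 0.05 and rings mark the set described. The genes typically induced by ISGF3 lie to the right of 0 with IL-1β (median 1.6) and to the left with PBSL (median -0.70).

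Genes typically induced by ISGF3 also rose with IL-1β, and most were lower with PBSL. Whether ISGF3 drove them in these cells was not tested. Of 32 genes typically induced by ISGF3, 31 were tested and all 31 rose with IL-1β, with a median log2 fold change of 1.6. Of these 31, 8 did not reach 1 in every untreated library, and the stimulated groups helped them pass the filter; XAF1 reached 1 in the IL-1β libraries alone, so its values had to differ in both comparisons. The other 23 passed on the untreated libraries, a division made after the values were seen. All 23 rose with IL-1β, with a median of 1.7, and 19 of them were lower with PBSL against IL-1β and 4 not called, with a median of -0.70. Over all 31, 25 were lower with PBSL, 6 were not called and none was higher. That count was 16 without IL-1β 1, 16 without IL-1β 3 and 28 without PBSL 1. With either IL-1β library left out XAF1 was no longer tested. With no filter the calls of IFIT3, MX1, OAS1, OASL, DDX58, PARP9, SAMD9 and SAMD9L were lost. Those of IFIT3, MX1, OAS1 and OASL were also lost without PBSL 2. By library the list's median stood 1.54 to 1.77 above untreated with IL-1β, and 1.31, 0.564 and 0.887 above it in PBSL 1, 2 and 3, so PBSL 2 was lowest here too. IFI35, a gene named by its small p, was at 28.1 ± 1.4, 85.3 ± 1.9 and 49.6 ± 12.6 in untreated, IL-1β and PBSL cells. ISG15, BST2 and IFI27 had log2 fold changes of -1.52, -1.65 and -2.18 with PBSL.

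Genes known to need IRF1 were lower with PBSL in part, although IRF1 was not. Of 11 listed genes 9 were tested, all 9 were called higher with IL-1β (median 1.11), and 5 were lower with PBSL against IL-1β (median -0.27), a count that was 3 without IL-1β 3, 3 without PBSL 2 and 5 without PBSL 1. The IL-1β call of IL15, named after its values were seen, was lost in 7 of 19 alternatives, up to adjusted p = 0.132 without IL-1β 1. The 5 were GBP1 and GBP2, interferon-induced GTPases, TAP1, a peptide transporter, and the immunoproteasome subunits PSMB8 and PSMB9. GBP1 went from 17.5 ± 1.1 to 42.0 ± 0.973 and was at 27.1 ± 5.69 with PBSL, and TAP1 from 14.9 ± 0.241 to 33.3 ± 1.17 and 23.2 ± 4.36. GBP2 had 4.67 ± 0.503, 17.0 ± 1.02 and 12.1 ± 2.24, and PSMB9 15.4 ± 1.76, 34.3 ± 1.26 and 25.3 ± 3.88. Without IL-1β 3 the GBP2 call was lost (adjusted p = 0.0502) and the PSMB9 call without PBSL 2 (adjusted p = 0.0507), from 0.0119 and 0.0116. That of PSMB8 was lost without any single IL-1β library, without PBSL 2 or without PBSL 3, with up to 0.0692. These genes are also known to respond to STAT dimers or ISGF3, and the 2 lists are not independent.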

How the data were processed

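The data were 1 table of 19389 genes by 9 mRNA libraries. Per the submitters' processing notes, Trim Galore, STAR and HTSeq were used with genome build hg38, with no versions given. The signal values are the authors' normalized expression values as deposited; whether they are FPKM or TPM, whether counting used strand and how multi-mapped reads were treated is not given in the sources used here. Values were transformed as log2(value + 1). Genes reaching a value of 1 in 3 or more libraries were tested, 11924 in all. limma 3.58.1 in R 4.3.3 was fitted to all 9 libraries with a mean per group and a trend of variance on mean, and genes were called at a 2-sided Benjamini-Hochberg adjusted p under 0.05 over all genes tested. Values are means ± SD of 3 libraries. The procedure was tested on simulated data.

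The set, the lists and the rules were chosen with earlier results of these data known. Every gene of the set is named; of each list, up to 4 others with the highest mean, or, for the lists of ISGF3 and IRF1 target genes, the smallest p with PBSL. Gene positions are from GENCODE 29 and promoters from RefSeq. Each result was recomputed under 19 alternatives: pseudocounts of 0.1 and 0.5, filters, scalings, fits and each library left out. Values of some genes in the lists are not reported here.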

Additional observations from a re-analysis of the deposited data

How the results depend on the processing

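Over 19 alternatives, no gene of the set changed direction with a call in any comparison: of 399 values 6 lost a call (IRF9 once and IRF3 in 5 cases, given above) and 1, IFNAR1 without PBSL 1, gained it. Of 4623 values of the other pathway genes, 4409 kept their call state, 180 lost a call and 34 gained one. None changed direction with a call, while a change of direction without a call was counted as kept. For PBSL against IL-1β, the counts depended on single libraries: leaving out 1 library at a time gave 1304 to 3910 called genes against 2684, 1 to 3 genes of the set against 2, and 23 to 50 pathway genes against 39. The set's lowest count was without IL-1β 1 and its highest without PBSL 1. Processing moved these counts too. With no filter 2027 genes in all and 29 pathway genes were called for PBSL against IL-1β. With only the 2 groups in the fit these were 2137 and 32, and the set kept 2 in both settings. The 3 rescalings moved the median of all genes by less than 0.1 on the log2 scale. With the shared label number as a replicate block, 6, 2 and 7 genes of the set were called in the 3 comparisons, as without it, and 3479, 2131 and 4535 genes in all against 3831, 2684 and 4965. Deviations from group means had correlations over genes of -0.225 to 0.0681 between same-numbered libraries and -0.111 to 0.196 between others. With 3 libraries in a group, these values cannot settle whether the numbers pair the libraries.

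The depth of the libraries is not known, which limits what can be said of IRF7, IFNB1 and IFNE.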
